A study of Mus musculus with 8 samples.

Results

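Genes of the cytosolic heat shock chaperone system (8) and of cold-inducible RNA-binding proteins (2) were described in tibialis anterior (TA) muscle of WT and KL-/- mice, 10 of the 12551 genes in the deposited count table. The heat shock genes were *Hsph1*, *Hsp90aa1*, *Hspa8*, *Hspa1a*, *Hspa1b*, *Dnajb1*, *Dnaja1* and *Hspb1*, and the cold-inducible genes were *Cirbp* and *Rbm3*. They were taken from the table by gene symbol, and all 10 were present. The set was chosen by its measured values in this same comparison, so the difference of its genes between genotypes is given as a description, with no test. The study asked how loss of Klotho, a membrane and circulating protein made mainly in the kidney and brain, affects skeletal muscle. RNA was sequenced from whole TA muscles of 4 WT and 4 KL-/- male littermates aged 7 weeks, 1 library for each muscle, and no treatment is given. KL-/- mice carry the null allele in every tissue and were bred on a mixed background from Klotho+/- parents, so that an effect of the muscle's own genotype cannot be told apart from that of its loss elsewhere in the body.

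Heat shock proteins are chaperones that hold, fold and refold other proteins. HSF1, a transcription factor that binds heat shock elements made of repeated GAA and TTC units, raises their transcription on heat and on other stresses that unfold proteins. HSP70 proteins bind and fold new and damaged chains, DNAJ proteins bring them clients and stimulate their ATPase, HSP110 proteins exchange their nucleotide, HSP90 finishes signalling proteins and, in muscle, myosin, and small heat shock proteins bind unfolding proteins at the sarcomere. CIRBP and RBM3 are related RNA-binding proteins whose transcripts rise on mild cooling and fall at fever temperatures, and they follow the daily rhythm of body temperature. The inducible heat shock genes are therefore known to respond to temperature in the direction opposite to *Cirbp* and *Rbm3*.

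Libraries held 20860262 to 26501093 counts in WT and 22061526 to 29273758 in KL-/-, and a count of 3 was worth 0.105 to 0.143 CPM (counts per 1000000 of the library). CPM are given after scaling by TMM factors, which centre most genes between libraries. The summed level of 12 fast myofibre markers was 169617 to 190368 CPM in WT and 200640 to 243428 CPM in KL-/-, so the tissue matched its label in all 8 libraries. *Kl* itself was not among the counted genes, so for these libraries the genotype rests on the labels. The paper reports that mice were genotyped by PCR, and that Klotho protein and *Kl* mRNA were not detectable in KL-/- muscle. The labels date the batch of KL-/- replicate 3 differently from the remaining 7, and that date and that mouse cannot be told apart. In whole muscle, a lower level can be fewer cells of a type or less RNA for each cell, and these cannot be told apart.

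Promoter sequences from RefSeq on GRCm38.p6 (mm10), 250 bases before to 50 after each annotated start, were searched because they can carry the element through which HSF1 acts. They were found for 7 of the 10 genes, and *Hsp90aa1*, *Hspa8* and *Rbm3* had no entry. A heat shock element of 3 alternating units (GAA, a pair of bases, TTC, a pair of bases, GAA, or the same begun with TTC, searched on both strands) was in 0.603% of 32851 promoters (0.662% of 27025 genes) and, among the 7 genes, in *Hsph1*. The 2-unit form, GAANNTTC or TTCNNGAA, which is contained in the longer one, was in 15.1% of promoters (17.0% of genes) and in 5 of the 7 genes. Allowing 1 mismatch, the 3-unit form was in 7.22% of promoters (8.15% of genes) and in the same 5 genes. The sites are printed below 5′ to 3′ on the strand of the gene, with the units and the bases between them in capitals, and positions are counted from the annotated start.
Hsph1, chr5:149636342-149636389, minus strand, site at -33 or -54 for its 2 annotated starts: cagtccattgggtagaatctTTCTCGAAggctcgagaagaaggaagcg
Hsph1, chr5:149636288-149636300, minus strand, 3 units in the first transcribed bases: TTCTGGAAAGTTC
Hspa1a, chr17:34972233-34972280, minus strand, site at -104: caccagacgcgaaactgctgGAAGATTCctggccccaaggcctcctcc
Hspa1b, chr17:34959315-34959362, minus strand, site at -104: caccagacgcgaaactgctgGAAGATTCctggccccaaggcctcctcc
Hspb1, chr5:135887782-135887829, plus strand, site at -117, with another at -97 at the right edge: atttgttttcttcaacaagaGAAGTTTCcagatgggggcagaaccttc
Dnaja1, chr4:40722324-40722371, plus strand, site at -124 from 1 of its annotated starts: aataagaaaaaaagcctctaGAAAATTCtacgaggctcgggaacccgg
The *Hspa1a* and *Hspa1b* promoters were the same at 296 of 300 bases, so these genes are not independent in the counts of genes with a motif, above and below. For the cold-inducible side, the letters TCCCCGCC, known as the mild-cold response element of *Cirbp* and overlapping GC-box sequence, were searched on both strands after the other values had been seen. They were in 5.38% of promoters (6.19% of genes) and in 5 of the 7 genes, *Cirbp*, *Dnaja1*, *Dnajb1*, *Hspa1a* and *Hspa1b*, so that they were shared by heat shock genes and *Cirbp*. The *Cirbp* match is shown with the element in capitals.
Cirbp, chr10:80167589-80167619, plus strand, match at -247: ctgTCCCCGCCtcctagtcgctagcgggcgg

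Over the 10 genes, *Rbm3*, *Cirbp* and *Hsph1* stood farthest apart between genotypes relative to their standard errors, and the stress-inducible *Hspa1a* and *Hspa1b* were low and scattered. Past an FDR of 0.05 in the edgeR quasi-likelihood fit over all genes were 2 members higher in KL-/- (*Rbm3* and *Cirbp*), where 7.35% of all genes were called higher, and 2 lower (*Hsph1* and *Hsp90aa1*), where 6.67% of all genes were called lower. *Rbm3* and *Hsph1* passed with each library left out. *Cirbp* passed in 2 of these 8 fits (without WT replicate 4 or KL-/- replicate 2) and *Hsp90aa1* in 3 (without WT replicate 2, KL-/- replicate 1 or KL-/- replicate 2). Library totals gave 5 lower, with *Hspa8*, *Dnaja1* and *Hspb1* added. Since this contrast chose the genes, nothing is read from these counts. Every KL-/- library was above every WT library for 1 member, *Rbm3*, against 10.2% of all genes, and below for 4 members, *Hsph1*, *Hsp90aa1*, *Hspa8* and *Dnaja1*, against 9.47% of all genes. The other 5 members overlapped between genotypes. Below, CPM are means ± SD over 4 mice and log2 fold changes of KL-/- over WT are ± SE.

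**Figure D1:**
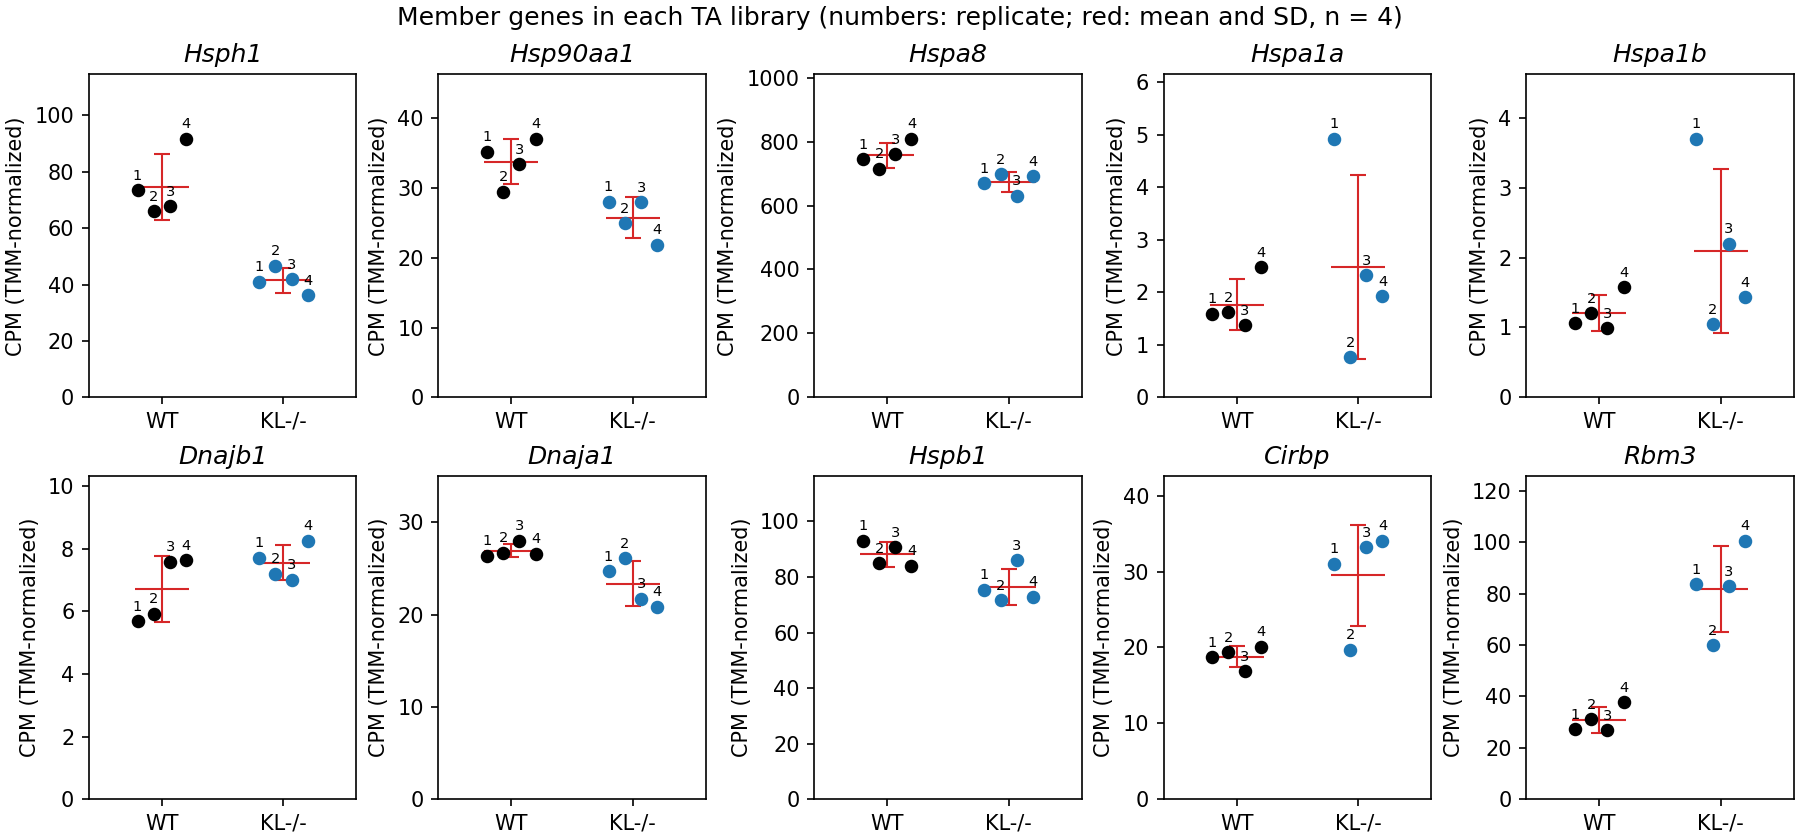
Level of the 10 genes in each of the 8 TA libraries, in TMM-normalized CPM on linear axes from 0, with WT in black, KL-/- in blue, the replicate number above each point and the mean and SD (n = 4) in red. The 4 KL-/- libraries lie below the 4 WT libraries for Hsph1 (36.1 to 46.7 against 66.0 to 91.6 CPM) and above them for Rbm3 (59.9 to 101 against 26.8 to 37.7 CPM), while KL-/- replicate 1 stands highest for Hspa1a and Hspa1b.

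*Hsph1* encodes HSP110, the large relative of HSP70 that exchanges its nucleotide and helps to dissolve aggregates. It lies on chr5:149616845-149636315 on the minus strand and is the gene with the 3-unit element printed above. It was at 73.4, 66.0, 67.7 and 91.6 CPM in WT replicates 1 to 4 and at 41.0, 46.7, 41.9 and 36.1 CPM in KL-/- replicates 1 to 4. WT replicate 4 was the highest library and KL-/- replicate 4 the lowest, and the genotypes were separated by a gap wider than the range of the KL-/- libraries. Group means were 74.7 ± 11.7 CPM in WT and 41.5 ± 4.33 CPM in KL-/- (SD, n = 4), and the log2 fold change was -0.85 (SE 0.12) and ranged from -0.91 to -0.74 with each library left out. Its transcript shared no identical run of 50 bases with an annotated transcript of another gene, and copies that differ within such runs were not searched. *Hsph1* is 1.32 Mb from *Kl* on chromosome 5, with 6 counted genes between, and the part of sequence linked to the null allele in its level was not tested. Of the 34 counted genes within 5 Mb of *Kl*, 5 were called higher and 6 lower, where 7.35% of all genes were called higher and 6.67% lower.

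The other HSP70 and HSP110 genes fell or did not pass the test. Of 8 measured, 2 fell and none rose (none at an unadjusted p under 0.05 or with DESeq2 either), with a median log2 fold change of -0.32 against -0.02 over all genes. *Hspa4l*, the HSP110 paralogue best known from testis, fell from 12.2 ± 1.40 to 6.53 ± 0.93 CPM (-0.90 ± 0.13, FDR = 0.00473) and passed under all 16 alternative settings. Among these 16, here and below, the setting with no filter on low counts repeated the main fit. *Hspa13*, a microsome-associated HSP70, fell from 16.7 ± 1.21 to 11.7 ± 2.15 CPM (-0.52 ± 0.12, FDR = 0.0267) and passed under 8 of 16 settings. *Hspa4*, the abundant HSP110 of the cytosol, averaged 141 CPM in WT against 134 CPM in KL-/- and did not pass (FDR = 0.366).

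*Hspa8*, the constitutive HSP70 that folds new chains and uncoats vesicles, was the most abundant member. It lies on chr9:40801273-40805199 on the plus strand. It was at 746, 715, 760 and 808 CPM in the WT replicates and at 670, 698, 631 and 692 CPM in the KL-/- replicates. The genotypes did not overlap, but WT replicate 2 and KL-/- replicate 2 were close. Group means were 757 ± 38.9 and 673 ± 30.2 CPM (SD, n = 4), and the log2 fold change was -0.17 (SE 0.07) and became -0.29 when libraries were scaled by their totals. Of the 50-base runs of its transcript, 74.8% also occur in other genes, 13 of them, so its counts depend on how reads with several matches were treated.

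*Hspa1a* and *Hspa1b*, neighbouring genes on chromosome 17 that encode the stress-inducible HSP70 and share the -104 site printed above, were the least abundant members. *Hspa1a* (chr17:34969359-34972156) was at 1.59, 1.62, 1.37 and 2.47 CPM in WT and at 4.92, 0.763, 2.32 and 1.92 CPM in KL-/-, from 35 to 69 and from 16 to 141 counts. *Hspa1b* (chr17:34956429-34959238) was at 1.06, 1.20, 0.991 and 1.58 CPM in WT and at 3.70, 1.05, 2.20 and 1.43 CPM in KL-/-. KL-/- replicate 1 was the highest library and the genotypes overlapped for both genes. The log2 fold change of *Hspa1a* was 0.52 (SE 0.45) and turned to -0.05 without KL-/- replicate 1. That of *Hspa1b* was 0.82 (SE 0.38) and became 0.38 without that library. Transcripts of the pair share 66.3% (*Hspa1a*) and 62.3% (*Hspa1b*) of their 50-base runs with other genes, for the most part with each other, so the split between them is uncertain. *Hspa1a* also overlaps *Gm20481* on the opposite strand; whether the counting used strand is not stated.

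*Hsp90aa1* encodes the stress-inducible HSP90 and lies on chr12:110691036-110696395 on the minus strand. It was at 35.2, 29.5, 33.4 and 37.0 CPM in WT and at 28.1, 25.0, 28.0 and 21.9 CPM in KL-/-. All KL-/- libraries were below all WT libraries, with KL-/- replicate 1 just under WT replicate 2. Group means were 33.8 ± 3.24 and 25.7 ± 2.93 CPM (SD, n = 4), and the log2 fold change was -0.39 (SE 0.10). *Hsp90ab1*, the constitutive HSP90, averaged 935 CPM in WT against 1047 CPM in KL-/- and did not pass the test (log2 fold change 0.16 ± 0.08, FDR = 0.197). Of the 50-base runs of *Hsp90aa1*, 58.5% also occur in other genes.

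Of 20 genes for HSP90 and its co-chaperones, 4 fell, 1 rose and 15 did not pass the test, with a median log2 fold change of -0.07. Scaled by library totals instead, 8 fell and 1 rose. *Stip1*, the adaptor that joins HSP70 to HSP90, fell from 110 ± 3.70 to 87.8 ± 5.80 CPM (log2 fold change -0.33 ± 0.06, FDR = 0.0109). *Chordc1*, an HSP90 co-chaperone, fell from 54.0 ± 2.71 to 39.7 ± 5.81 CPM (-0.44 ± 0.10, FDR = 0.0199). *Ttc4* fell by 0.39 on the log2 scale (SE 0.07, FDR = 0.00891) and *Ahsa2*, related to the HSP90 ATPase activator, by 0.35 (SE 0.09, FDR = 0.0329). The genes of this list that fell thus spanned an adaptor and several cofactors, while *Unc45b* and *Smyd1*, the muscle co-chaperone and methyltransferase that act with HSP90 on myosin, were at 371 and 742 CPM in WT and 346 and 659 CPM in KL-/- and did not pass. *Fkbp5*, an immunophilin of steroid receptor complexes and a known glucocorticoid target, rose from 32.9 ± 8.79 to 87.0 ± 43.1 CPM (1.40 ± 0.37, FDR = 0.0354) with overlapping genotypes. The calls of *Ahsa2* and *Fkbp5* were kept under 8 and 9 of 16 settings, that of *Ttc4* under 16.

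*Dnaja1* and *Dnajb1* encode the DNAJ partners of HSP70 that are best known from the heat shock response. *Dnaja1* (chr4:40722468-40737151, plus strand) was at 26.4, 26.7, 28.0 and 26.6 CPM in WT and at 24.7, 26.1, 21.7 and 20.9 CPM in KL-/-. The genotypes did not overlap, but KL-/- replicate 2 was within 1 CPM of WT replicate 1, and the log2 fold change was -0.21 (SE 0.08). *Dnajb1* (chr8:83608175-83612653, plus strand) was at 5.67, 5.92, 7.59 and 7.64 CPM in WT and at 7.71, 7.20, 7.00 and 8.26 CPM in KL-/-. The genotypes overlapped, and the log2 fold change was 0.17 (SE 0.13). *Dnaja1* overlaps *Smu1* on the opposite strand. Of 18 other DNAJ genes listed under the cytosol and nucleus, 2 rose and none fell, against 8 higher and 2 lower at an unadjusted p under 0.05 and 4 higher and 0 lower with DESeq2. *Dnajc21*, a DNAJ protein of ribosome biogenesis, rose by a log2 fold change of 0.53 ± 0.14 (FDR = 0.0319), and *Dnajb12*, of the endoplasmic reticulum membrane, by 0.32 ± 0.09 (FDR = 0.0430). Each passed under 9 of 16 settings, and with library totals none of the 18 rose and 2 fell. *Dnajb12* is counted in this list and not with the endoplasmic reticulum chaperones below.

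*Hspb1* encodes the small heat shock protein HSP25 and lies on chr5:135887919-135889563, 15.1 Mb from *Kl*. It was at 93.1, 84.9, 90.6 and 84.1 CPM in WT and at 75.5, 71.7, 86.0 and 72.9 CPM in KL-/-. KL-/- replicate 3 was above WT replicates 2 and 4, so the genotypes overlapped, and the log2 fold change was -0.20 (SE 0.07) and -0.27 without that library. Of its 50-base runs, 51.6% also occur in *Hsp25-ps1*, a pseudogene by its name. Of 6 other small heat shock proteins, 2 fell and none rose (none at an unadjusted p under 0.05 or with DESeq2 either), with a median log2 fold change of -0.23. *Hspb8*, which works with BAG3 in the disposal of damaged filamin, fell from 384 ± 30.2 to 244 ± 23.6 CPM (log2 fold change -0.66 ± 0.08, FDR = 0.00307) and passed under all 16 settings. *Hspb2*, the partner of HSPB3, fell from 66.4 ± 5.24 to 55.2 ± 3.58 CPM (-0.27 ± 0.07, FDR = 0.0431) and passed under 7 of 16.

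Among regulators of the system, none of the 4 measured HSF factors passed the test in either direction, nor at an unadjusted p under 0.05 or with DESeq2. *Hsf1* averaged 41.1 ± 2.09 CPM in WT against 43.2 ± 3.16 CPM in KL-/- (FDR = 0.508) and *Hsbp1*, a small protein that binds HSF1, averaged 81.8 ± 4.20 and 82.2 ± 4.18 CPM (FDR = 0.949). Of 11 nucleotide exchange and regulatory factors of HSP70, *Bag2* fell (log2 fold change -0.59 ± 0.09, FDR = 0.00563) and *Bag1* rose (0.33 ± 0.07, FDR = 0.0189), and 9 did not pass. The call of *Bag1* was kept under 11 of 16 settings and that of *Bag2* under 16.

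Among chaperones of other compartments and substrates, 3 of 14 TRiC and prefoldin subunits rose (*Tcp1* by 0.31 ± 0.05, FDR = 0.00760) and 1, *Cct3*, fell (-0.24 ± 0.06, FDR = 0.0310), a call kept under 8 of 16 settings. Of 12 mitochondrial chaperones 3 rose and none fell (none at an unadjusted p under 0.05 or with DESeq2 either), among them *Clpx*, an unfoldase of the matrix (0.31 ± 0.05, FDR = 0.00971), and *Trap1*, the mitochondrial HSP90 (0.27 ± 0.06, FDR = 0.0228), a call kept under 10 of 16. Of 15 chaperones listed under the endoplasmic reticulum 1 fell, *Dnajc3* (-0.31 ± 0.06, FDR = 0.0148), and none rose, against 2 higher and 6 lower at an unadjusted p under 0.05, 0 higher and 3 lower with DESeq2 and 6 lower with library totals. Over all 108 measured chaperone and co-chaperone genes outside the set, 10 rose and 11 fell, 9.26% and 10.2%, beside 7.35% and 6.67% of all genes, with a median log2 fold change of 0.02 against -0.02. The balance depended on scaling, since library totals moved the median of all genes to -0.13 and gave 3 higher and 29 lower. It also depended on the libraries, from 2 higher and 6 lower without KL-/- replicate 3 or 4 to 20 higher and 14 lower without KL-/- replicate 2.

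**Figure D2:**
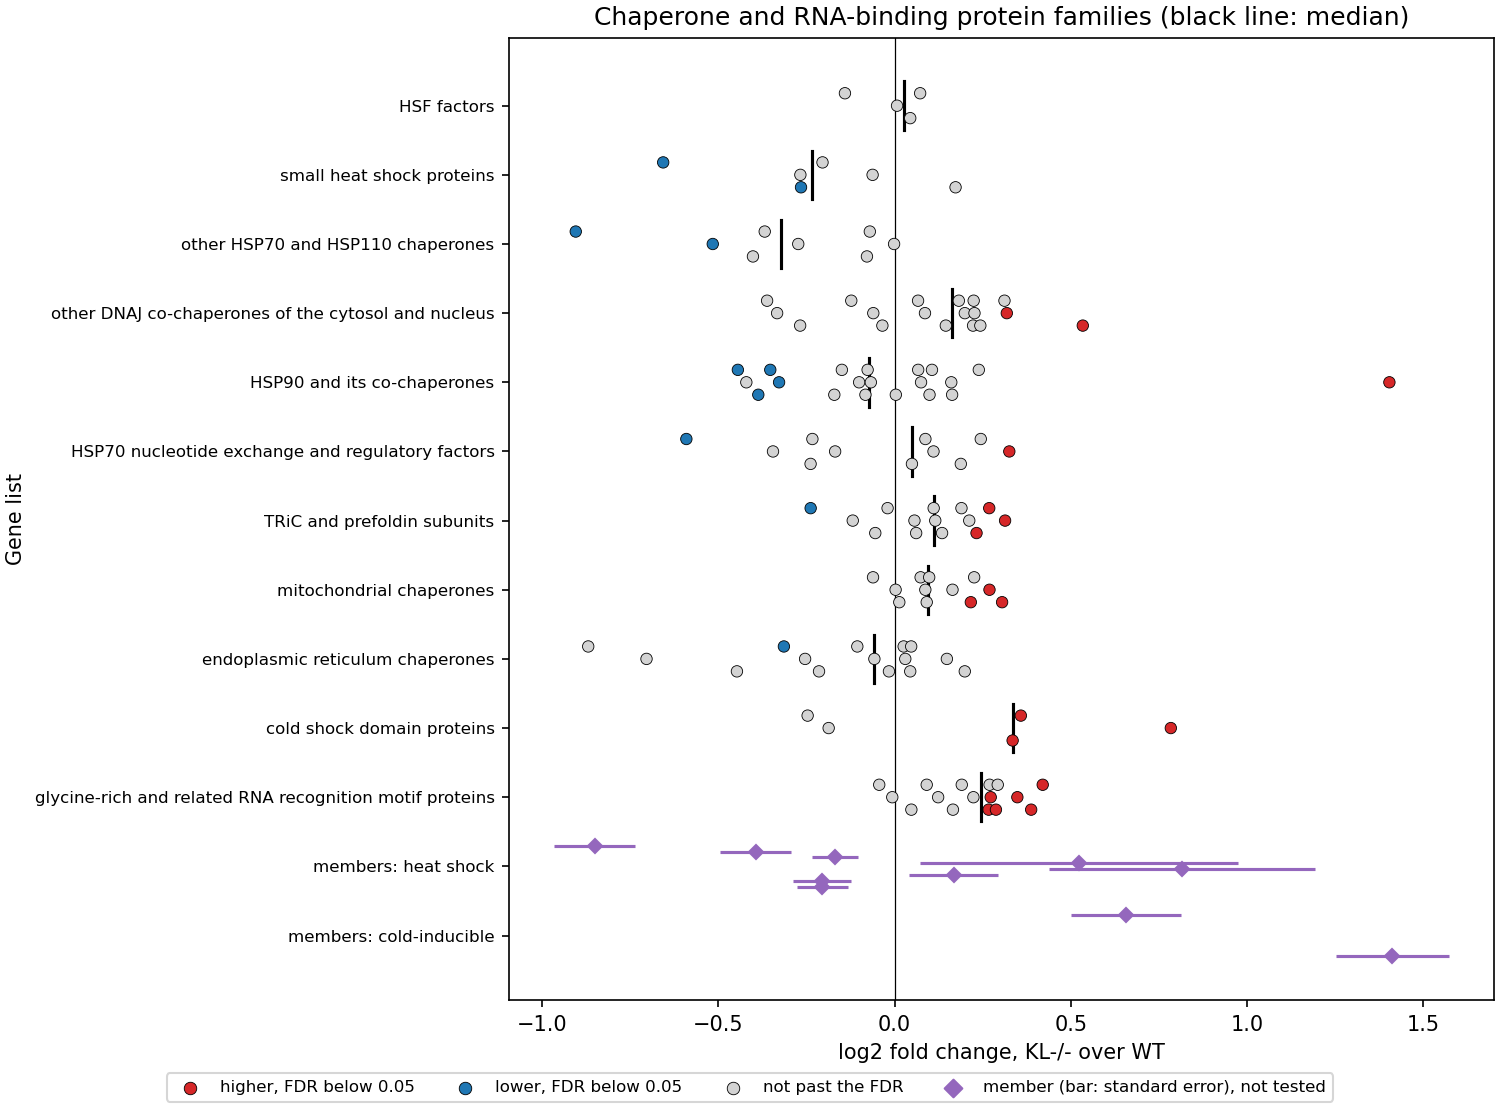
Log2 fold change between KL-/- and WT (x axis, edgeR) of each measured gene in the 9 chaperone and 2 RNA-binding lists, with genes past an FDR of 0.05 in red (higher) or blue (lower), the others in grey and the list median as a black line, above the 10 untested members as purple diamonds with standard errors. The other HSP70 and HSP110 genes spread from -0.90 to 0.00 and the cold shock domain genes from -0.25 to 0.78.

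*Rbm3* had the largest log2 fold change of the set. It lies on chrX:8138975-8145880 on the minus strand and encodes a glycine-rich RNA-binding protein that is known to support translation in the cold. It was at 27.2, 31.1, 26.8 and 37.7 CPM in WT and at 83.6, 59.9, 82.8 and 101 CPM in KL-/-. Every KL-/- library was above every WT library, KL-/- replicate 2 being the lowest of its group. Group means were 30.7 ± 5.04 and 81.7 ± 16.7 CPM (SD, n = 4), a fitted fold of 2.66. The log2 fold change was 1.41 (SE 0.16) and ranged from 1.30 to 1.54 with each library left out. *Rbm3* overlaps the antisense gene *Rbm3os*, and without stated use of strand the reads of both cannot be told apart. Of its 50-base runs 14.8% occur in other genes, mainly *Rbm3-ps*.

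*Cirbp*, on chr10:80167841-80171653 on the plus strand, encodes a close relative of RBM3 that moves to stress granules. It was at 18.7, 19.3, 16.9 and 20.1 CPM in WT and at 31.0, 19.7, 33.2 and 34.1 CPM in KL-/-. KL-/- replicate 2 lay inside the WT range, below WT replicate 4, and the other 3 KL-/- libraries were above all WT libraries. Group means were 18.8 ± 1.38 and 29.5 ± 6.66 CPM (SD, n = 4), and the log2 fold change was 0.66 (SE 0.16) and 0.81 without KL-/- replicate 2. Its transcript shared no 50-base run with another gene.

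Relatives of these RNA-binding proteins rose or did not pass the test. Of 21 measured, 9 rose and none fell, which is 42.9% higher beside 7.35% of all genes, with a median log2 fold change of 0.27. The lists were chosen with earlier results of these data known, so this share is no independent support for the rise of *Rbm3* and *Cirbp*. At an unadjusted p under 0.05 the counts were 12 higher and 0 lower, and with DESeq2 11 higher and 0 lower. With library totals 6 rose and none fell, and 4 to 10 rose with each library left out, the fewest without WT replicate 2. Of 5 cold shock domain genes 3 rose. *Ybx3*, a repressor of translation that is abundant in muscle, rose from 804 ± 98.8 to 1385 ± 313 CPM (log2 fold change 0.78 ± 0.16, FDR = 0.0163) and *Ybx1*, the core protein of stored mRNA particles, from 506 ± 41.2 to 648 ± 31.6 CPM (0.36 ± 0.07, FDR = 0.0157). Of 16 RNA recognition motif genes 6 rose, with *Rbm5*, a splicing regulator, by 0.42 ± 0.09 (FDR = 0.0147), *Srsf5*, a splicing factor, by 0.39 ± 0.07 (FDR = 0.00916), *Ewsr1* by 0.35 ± 0.05 (FDR = 0.00598) and *Rbm25* by 0.29 ± 0.05 (FDR = 0.0119). The largest of these log2 fold changes, that of *Ybx3*, was smaller than that of *Rbm3* and larger than that of *Cirbp* (0.66).

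For comparing genes, CPM were divided by the deposited exon length in kilobases (RPKM). The order of levels in WT was *Hspa8* at 360 ± 18.5, *Hspb1* at 97.6 ± 4.87, *Hsph1* at 21.5 ± 3.37, *Cirbp* at 14.9 ± 1.10, *Hsp90aa1* at 11.9 ± 1.14 and *Rbm3* at 8.57 ± 1.41 RPKM (SD, n = 4). Below them were *Dnaja1* at 4.65 ± 0.128, *Dnajb1* at 2.08 ± 0.326, *Hspa1a* at 0.631 ± 0.174 and *Hspa1b* at 0.430 ± 0.0931 RPKM. This order held within every WT library, and the ranges over libraries of neighbours overlapped for *Hsp90aa1* and *Rbm3* and for *Hspa1a* and *Hspa1b*. In KL-/- the order was *Hspa8* at 320 ± 14.4, *Hspb1* at 84.7 ± 7.19, *Cirbp* at 23.5 ± 5.31, *Rbm3* at 22.8 ± 4.66, *Hsph1* at 11.9 ± 1.24 and *Hsp90aa1* at 9.03 ± 1.03 RPKM, followed by *Dnaja1* at 4.03, *Dnajb1* at 2.34, *Hspa1a* at 0.887 and *Hspa1b* at 0.745 RPKM. *Cirbp* and *Rbm3* stood above *Hsph1* in every KL-/- library and below it in every WT library. In KL-/- the ranges of *Cirbp* and *Rbm3* overlapped, as did those of *Hspa1a* and *Hspa1b*.

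Variation between mice of 1 genotype differed widely among the members. The SD of log2 CPM pooled over both genotypes was 0.07 for *Hspa8*, at percentile 7.25 of all genes, and 0.79 for *Hspa1a*, at percentile 98.5, with 0.57 for *Hspa1b* and a median of 0.16 over all genes. *Cirbp* and *Rbm3* both had 0.27, and in each the KL-/- libraries varied more than the WT ones. WT replicate 4 was the highest WT library for 8 of the 10 members. KL-/- replicate 2 was the KL-/- library nearest the WT mean for 6 members, *Hsph1*, *Hspa8*, *Hspa1b*, *Dnaja1*, *Cirbp* and *Rbm3*. Both libraries also stood apart over all genes. The chi-square per gene of KL-/- replicate 2 against KL-/- replicates 1, 3 and 4 was 84.4, 84.8 and 60.6, and at most 27.9 for other KL-/- pairs. WT replicate 4 gave 29.9, 42.3 and 45.9 against WT replicates 1 to 3, and other WT pairs at most 26.3. Shares of all genes with these orders were not computed, so neither count is read as a trait of the set.

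**Figure D3:**
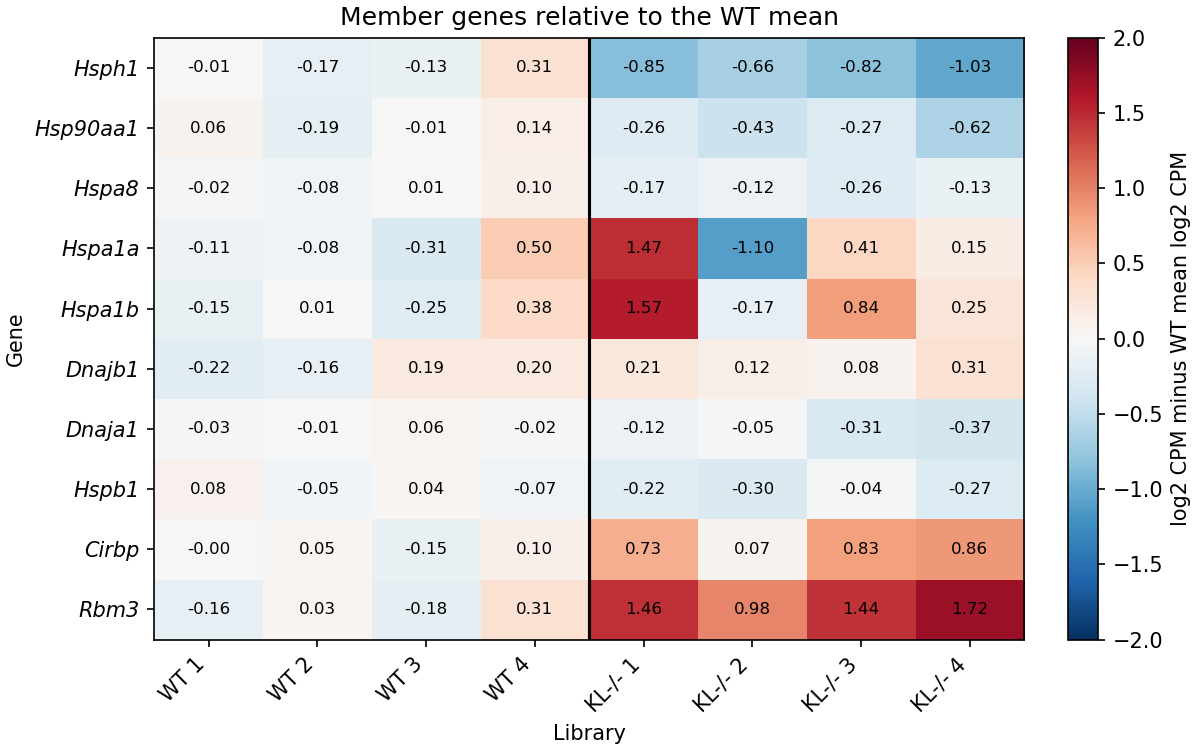
Log2 CPM of each member in each library minus its mean over the 4 WT libraries, in log2 units, with red above and blue below the WT mean and a vertical line between the genotypes. Rbm3 is between 0.98 and 1.72 in KL-/-, Cirbp is at 0.07 in KL-/- replicate 2 and at 0.73 to 0.86 in the other 3, and Hsph1 is between -1.03 and -0.66.

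Across the 8 libraries, deviations of log2 CPM from the genotype mean were compared between members as a description over few points that share libraries and depth. *Cirbp* and *Rbm3* moved together (Pearson r = 0.87, Spearman rho = 0.90), as did *Hspa1a* and *Hspa1b* (r = 0.96, rho = 0.86), the latter being also joined by shared sequence. *Dnaja1* moved against *Cirbp* (r = -0.83, rho = -0.69) and *Rbm3* (r = -0.72, rho = -0.60), the latter at r = -0.43 without KL-/- replicate 2. *Hspa1a* and *Cirbp* had r = 0.76 and rho = 0.79, and r was -0.01 without KL-/- replicate 2, so that value rested on 1 library. With each library left out, r ranged from 0.79 to 0.93 for *Cirbp* and *Rbm3*, from 0.91 to 1.00 for *Hspa1a* and *Hspa1b* and from -0.98 to -0.70 for *Dnaja1* and *Cirbp*. The mean of the 8 heat shock genes and the mean of *Cirbp* and *Rbm3* had r = 0.15 and rho = 0.24, and r went from -0.23 without WT replicate 4 to 0.46 without KL-/- replicate 4, so its sign rested on single libraries. Among 8224 genes whose average log2 CPM was 3 or more, those most like the mean of the heat shock genes were *Uhrf1bp1l* (r = 0.98), *Zfp131*, *Neu1*, *Supt6* and *Arih1*, and those most like *Cirbp* and *Rbm3* were *Pla2g12a* (r = 0.99), *Ethe1*, *Maea*, *Mrps24* and *Kansl3*, values that are the highest of many over 8 libraries.

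**Figure D4:**
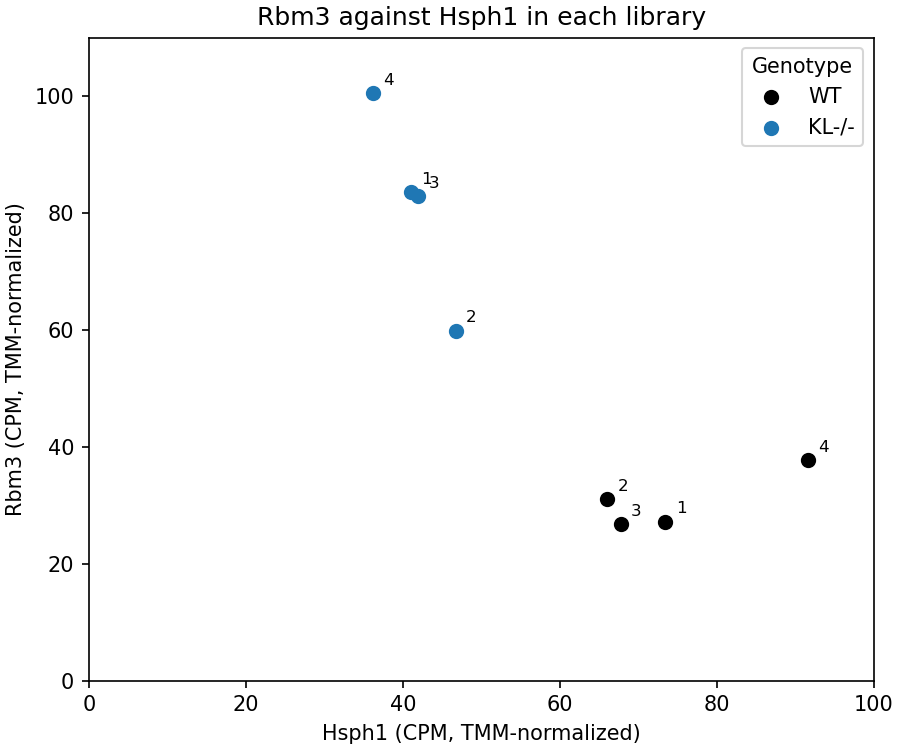
Level of Rbm3 (y axis) against Hsph1 (x axis) in each library, both in TMM-normalized CPM on linear axes from 0, WT in black and KL-/- in blue with replicate numbers. The genotypes are apart on both axes, and WT replicate 4 is the highest WT library on both (91.6 CPM Hsph1 and 37.7 CPM Rbm3).

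Genes of the circadian clock and immediate early genes are given because *Cirbp* and *Rbm3* are rhythmic and heat shock genes respond to handling. Of 13 clock genes 5 rose and 4 fell, 38.5% and 30.8% beside 7.35% and 6.67% of all genes. *Per1* rose from 34.9 ± 17.0 to 143 ± 61.5 CPM (log2 fold change 2.04 ± 0.45, FDR = 0.0202), *Per2* from 8.69 ± 3.65 to 27.8 ± 3.64 CPM (1.68 ± 0.29, FDR = 0.00850), *Per3* by 1.00 ± 0.16 (FDR = 0.00706) and *Cry2* by 0.75 ± 0.11 (FDR = 0.00598). *Arntl* fell from 17.8 ± 5.51 to 6.06 ± 2.32 CPM (-1.55 ± 0.29, FDR = 0.0114), as did *Npas2* (-2.61 ± 0.65, FDR = 0.0295), *Nr1d1* (-1.06 ± 0.20, FDR = 0.0107) and *Clock* (-0.69 ± 0.11, FDR = 0.00598). *Per1*, *Per2*, *Per3* and *Cry2*, which repress the clock, thus rose, while its activators *Arntl*, *Npas2* and *Clock* and the repressor *Nr1d1* fell. The listed repressors *Cry1*, *Ciart* and *Nr1d2* did not pass the test (FDR = 0.331, 0.0893 and 0.224). The hour at which muscles were taken is not given in the sources used here. Of 16 immediate early genes 4 rose, *Btg2* (1.69 ± 0.33, FDR = 0.0125), *Atf3* (1.38 ± 0.33, FDR = 0.0257), *Myc* (1.21 ± 0.34, FDR = 0.0435) and *Klf6* (0.82 ± 0.19, FDR = 0.0223), and none fell. That is 25% higher, beside 7.35% of all genes. At an unadjusted p under 0.05 the counts were 7 higher and 0 lower, and with DESeq2 5 higher and 0 lower. The calls of *Myc*, *Klf6*, *Atf3* and *Per1* were kept under 10, 11, 11 and 12 of 16 settings, the last not with the replicate block. The part of hour or handling in the levels of the members was not tested.

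Levels of some markers of other cell types also moved with genotype. The 8 fibroblast markers summed to 982 to 3860 CPM in WT and 557 to 1742 CPM in KL-/-, and 3 of them fell. The 5 measured adipocyte markers summed to 392 to 473 CPM in WT and 616 to 803 CPM in KL-/-, and 2 rose. These were *Plin4* (232 CPM in WT, 453 CPM in KL-/-) and *Fabp4* (187 and 225 CPM), which made up most of the sum. *Adipoq*, *Cfd* and *Cidec* overlapped between genotypes and did not pass (FDR = 0.218, 0.258 and 0.181). The 7 Schwann cell markers summed to 53.1 to 94.1 CPM in WT and 98.5 to 120 CPM in KL-/-, and 3 rose. The 12 leukocyte markers summed to 71.5 to 149 CPM in WT and 50.4 to 87.2 CPM in KL-/-, and 2 fell. WT replicate 4, the highest WT library for 8 members, had the lowest fibroblast, leukocyte, Schwann cell, smooth muscle and fast myofibre sums of the WT group. It had the highest adipocyte, slow fibre and erythroid levels of that group. The 8 endothelial markers summed to 462 to 713 and 428 to 480 CPM, the 6 smooth muscle markers to 317 to 475 and 341 to 435 CPM, the 7 slow fibre markers to 125 to 195 and 120 to 220 CPM, and the 1 measured erythroid marker to 3.35 to 9.57 and 3.07 to 9.16 CPM, with 1 endothelial gene lower and 1 smooth muscle and 3 slow fibre genes higher. The part of these cells in the levels of the members was not tested.

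Within the 7 libraries that share a batch date, the log2 fold changes were 1.41 for *Rbm3*, 0.59 for *Cirbp*, -0.86 for *Hsph1*, -0.44 for *Hsp90aa1*, -0.14 for *Hspa8*, -0.17 for *Dnaja1*, -0.27 for *Hspb1*, 0.20 for *Dnajb1*, 0.56 for *Hspa1a* and 0.80 for *Hspa1b*, each with the sign it had over all 8 libraries.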

How the data were processed

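RNA of whole TA muscles was sequenced in 8 libraries. Per the labels and the study's methods, the authors used STAR to align reads to mm10, removed alignments of low quality by a cut-off not stated, counted them on genes with featureCounts and deposited raw counts for expressed genes, with each gene's exon length in bases as another column. The annotation version, the use of strand and the treatment of reads with several matches are not given in the sources used here. Groups and replicate numbers come from the sample labels, and p-values judge the difference between genotypes against the spread between these mice.

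The members and gene lists were chosen with earlier results of these data known. Deposited counts were fitted in R 4.3.3 with edgeR 4.0.16 (default filter, which kept all 12551 genes, TMM factors, genotype only, quasi-likelihood test, Benjamini-Hochberg adjustment over all genes, FDR threshold 0.05), and the standard error is the log2 fold change divided by the root of F. Log2 CPM used a prior count of 2. The fit was tested on simulated counts with 200 changed genes. Named genes are the members, the genes of each list past the FDR (at most the 4 with the largest change in each direction), the 2 most abundant where none passed, and the 5 genes most like each side by correlation. A gene that the rule names is not reported here. Values of other genes that did not pass were chosen after they were seen, to set beside the members. Lengths of shared sequence came from GENCODE M21 transcripts. Alternatives were RLE factors, library totals, a minimum of 10 counts, no filter, DESeq2 1.42.0, the likelihood ratio test, the replicate number as a block, each library left out and, chosen after seeing the data, the edgeR 3 quasi-likelihood test. Since the default filter kept every gene, the setting with no filter was the main fit again and could not differ from it.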

Additional observations from a re-analysis of the deposited data

How the results depend on the processing

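Precision is limited by 4 mice a group and, for *Hspa1a* and *Hspa1b*, by 16 to 141 counts a library. No log2 fold change of a member changed sign under RLE factors, library totals, a minimum of 10 counts, no filter, DESeq2, the likelihood ratio test, the edgeR 3 test or the replicate block, and with each library left out the sign changed for *Hspa1a* alone. Library totals gave 492 genes higher and 2127 lower in place of 922 and 837, a share of 18.8% higher in place of 52.4%, with 3 chaperone genes higher and 29 lower, and moved *Hspa8* to -0.29, *Dnaja1* to -0.32 and *Hspb1* to -0.32 (log2). DESeq2 called 1313 genes higher and 1143 lower.

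With each library left out, genes called higher ranged from 404 to 1521 and lower from 343 to 1234, most without KL-/- replicate 2. Chaperone genes called ranged from 2 to 20 higher and from 6 to 14 lower, cold shock and RNA recognition motif genes from 4 to 10 higher, and clock and immediate early genes from 4 to 10 higher. The correlation of heat shock with cold-inducible deviations ranged from -0.23 to 0.46. The count of members with a 3-unit heat shock element, 1, became 5 with the 2-unit form and 5 with 1 mismatch. The calls that a left-out library, the block or another setting removed numbered 152 over 43 listed genes in 16 settings, where a gene could be fitted, and none reversed.

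The replicate numbers did not pair the mice: deviations of same-numbered WT and KL-/- libraries correlated at -0.15, 0.18, -0.37 and 0.02 across genes, and WT replicate 2 was the single one that matched its own number best. With the replicate number as a block, 348 genes were called higher and 323 lower, with 2 chaperone genes higher and 4 lower and 4 RNA-binding genes higher, and 1 member passed in each direction, *Rbm3* and *Hsph1*.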
